A study of Homo sapiens with 8 samples.

Results

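TIAR-expressing cells were compared with cells expressing GFP alone. The comparison takes 4 of the 8 arrays of the series, 2 of the GFP-TIAR line and 2 of the GFP line. All lines derive from HEK293, a human embryonic kidney cell line, and carry a tetracycline-inducible transgene at one recombination site, which in the remaining 4 arrays encodes GFP-TIA1 or GFP-HuR. Every line therefore expresses GFP, either free or fused to an RNA-binding protein, and the GFP line is the control for the tag and the inducer, not for RNA binding. RNA was taken on the third day of induction. The labels describe isogenic stable lines and do not say whether replicates were separate cultures, so p-values measure only the spread between these arrays, which may be technical.

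TIAR, encoded by TIAL1, and its paralog TIA1 bind U-rich RNA through RNA recognition motifs. In the nucleus they act on the splicing of weak exons, and in the cytoplasm they hold back translation of mRNAs with AU-rich elements and enter stress granules. HuR, encoded by ELAVL1, binds similar sequences and is mostly known for stabilizing mRNAs.

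The genes with the largest differences included a cluster of MAGEA cancer-testis antigen genes on chromosome X and GSTP1. The sequences before their transcription starts are shown because these members were high together on the TIAR arrays and, for MAGEA, share letters. The first 3 lines give the 250 bases before the start of each MAGEA gene, from RefSeq on GRCh38.p14, 5′ to 3′ on the gene's strand: MAGEA2B at chrX:152714378-152714627 (plus strand), MAGEA6 at chrX:152769690-152769939 (minus strand) and MAGEA12 at chrX:152733507-152733756 (plus strand). Capitals mark the longest run of bases that all 3 share, 27 bases long.
MAGEA2B: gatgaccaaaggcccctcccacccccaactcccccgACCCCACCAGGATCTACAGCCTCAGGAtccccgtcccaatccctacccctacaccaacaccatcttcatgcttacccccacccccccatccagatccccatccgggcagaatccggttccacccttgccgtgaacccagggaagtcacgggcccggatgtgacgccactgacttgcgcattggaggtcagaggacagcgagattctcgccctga
MAGEA6: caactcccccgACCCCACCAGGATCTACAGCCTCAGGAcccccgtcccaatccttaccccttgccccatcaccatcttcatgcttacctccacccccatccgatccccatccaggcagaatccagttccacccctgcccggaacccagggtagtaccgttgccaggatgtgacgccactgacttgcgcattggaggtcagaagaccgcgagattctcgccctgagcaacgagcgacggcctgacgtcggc
MAGEA12: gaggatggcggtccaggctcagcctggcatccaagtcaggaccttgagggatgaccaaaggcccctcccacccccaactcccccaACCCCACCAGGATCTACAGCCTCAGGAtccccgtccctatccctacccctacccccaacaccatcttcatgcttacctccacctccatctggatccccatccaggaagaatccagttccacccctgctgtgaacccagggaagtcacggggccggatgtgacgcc
Searched on both strands, that run occurs in 5 of 27305 start regions of this length (0.0183%), those of MAGEA12, MAGEA2, MAGEA2B, MAGEA3 and MAGEA6. The start region of MAGEA12 also overlaps, on the opposite strand, that of CSAG1, whose region in the same table lies at chrX:152733672-152733971 and includes the 50 bases after the start. The last line gives the 250 bases before the start of GSTP1, at chr11:67583562-67583811 (plus strand), with each CG in capitals because CG dinucleotides are where DNA methylation is placed.
GSTP1: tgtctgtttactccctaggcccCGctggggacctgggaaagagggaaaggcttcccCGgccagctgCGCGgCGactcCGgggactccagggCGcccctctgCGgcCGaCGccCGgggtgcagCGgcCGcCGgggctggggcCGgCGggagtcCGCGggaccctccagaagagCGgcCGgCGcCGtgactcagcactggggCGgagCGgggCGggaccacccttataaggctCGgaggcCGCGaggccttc
This region holds 28 CG, against a median of 11 over all start regions. As many or more occur in 15.5% of them, and at least 1 CG in 93.6%.

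All values below are log2 processed signals relative to the 75th percentile of the array, so that 0 is a fairly bright probe and a difference of 1 is 2-fold. They are given in the order GFP 1, GFP 2, TIAR 1, TIAR 2, numbered by replicate. Of 50599 probes, 43530 exceeded background on GFP 1 and 26931 to 29605 on each of the other 7 arrays. On GFP 1 the local background was 88.7 intensity units against 37.2 to 43.2 elsewhere. GFP 1 correlated with the other arrays at r = 0.853 to 0.865 across probes, and the others among themselves at 0.977 or more. Of the probes measured on both arrays of a pair, 15.4% were at least 2-fold apart between the GFP arrays and 1.37% between the TIAR arrays. Every result below is therefore given against each GFP array apart. The GFP arrays lay in the first row of the slide and the TIAR arrays in the second, so slide row and line cannot be told apart.

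TIAL1, the expressed gene, read 2.44, 3.05, 5.47 and 5.56. Both TIAR arrays were far above both GFP arrays, 8.45-fold above GFP 1 and 5.50-fold above GFP 2 on average, and the TIA1 and HuR arrays lay between 2.20 and 3.14, with the GFP arrays. Limma gave a difference of 2.77 ± 0.33 (SE, n = 2 against 2) with an adjusted p of 0.094 on the 4 arrays and 0.00413 in the fit of all 8. A second TIAL1 probe, made from an Ensembl transcript, read -3.06, -3.11, -3.52 and -3.27 and showed no such difference. Which of the probes read the transgene was not tested. TIA1 was lower on the TIAR arrays, at 0.34, 0.76, -1.17 and -0.79, a difference of -1.52 ± 0.32 (SE, limma adjusted p = 0.202). Its second probe differed in the same direction by less, at 0.06, -0.15, -0.65 and -0.43. The drop was not particular to the TIAR line. On both probes the arrays of the TIA1 line also lay below both GFP arrays, while the HuR arrays lay between the GFP arrays. Limma did not call the TIAR and TIA1 lines apart on either probe. Neither probe was thus raised in the line that expresses GFP-TIA1, and whether they can read that transgene was not tested. ELAVL1 read 1.47, 1.50, 0.83 and 1.40, and TIAR 2 lay close to the GFP arrays.

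Limma on the 4 arrays called no gene up or down at a fold change of 2 and an adjusted p under 0.05 (0 of 21170 genes, 0%), with a smallest adjusted p of 0.0604, while 2846 genes (13.4%) had an unadjusted p under 0.05. Fitted with all 8 arrays, which share one estimate of the spread, the same test called 904 genes up and 373 down. Since the GFP arrays differ so much from each other, genes are named by a rule of size without a p. A gene is called higher when each TIAR array lay at least 2-fold above each GFP array and was well above background, and lower when each lay at least 2-fold below and both GFP arrays were well above background. Of 21170 genes, 597 were higher (2.82%) and 302 lower (1.43%). Against GFP 1 alone, 1810 genes were past 2-fold upward and 2555 downward, and against GFP 2 alone 1479 and 589, so the excess of lower genes against GFP 1 was not seen against GFP 2. An unadjusted limma p under 0.05 was found for 597 of the higher and 300 of the lower genes. At the edge of the rule, the smallest of the 4 differences was 1.001 for XLOC_011248 just inside and 0.9999 for ENST00000406939 just outside.

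Lower genes were mostly dim ones. Split by mean signal over 8 arrays into 3 groups of equal size, in the dimmest group 4.32% were higher and 3.37% lower, and in the brightest group 0.964% and 0.156%. Median differences from GFP 1 were -0.52 in the dimmest, 0.28 in the middle and 0.48 in the brightest group. From GFP 2 they were 0.15, 0.01 and -0.05. Of the 302 lower genes, 135 were well above background on neither TIAR array and 142 on both. Of the 597 higher genes, 112 were well above background on neither GFP array and 410 on both. Where a gene was below background on both arrays of a line, its fold is given as a lower bound, set by the lowest signal that counted as well above background on those arrays.

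Ranked by the smallest of the 4 differences on each gene's brightest tested probe, the first gene upward was GSTP1, a glutathione transferase that conjugates electrophiles, measured by a probe at chr11:67354050-67354109 of hg19. It read -2.69, -3.67, 4.27 and 4.40, so the TIAR arrays were 130.3-fold above GFP 1 and 256.9-fold above GFP 2 (difference 7.52 ± 0.41, SE, limma adjusted p = 0.0604). GSTP1 was at 4.53 to 5.06 on the TIA1 and HuR arrays as well, so the GFP line stood apart and not the TIAR line. Of 14 glutathione transferases measured, GSTP1 was the one that was higher, and GSTZ1 was lower (1.35, 1.87, 0.19, 0.16).

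ODZ1, now named TENM1, a teneurin that joins synaptic partners, ranked next at -3.36, -3.38, 1.25 and 1.33, barely before MAGEA2B (smallest differences of 4.614 and 4.611), whose mean difference was larger. ODZ1 was 25.1-fold above GFP 1 and 25.4-fold above GFP 2. On the TIA1 and HuR arrays it read -7.18 to -4.98, below the GFP arrays, and limma put it 8.12 ± 0.25 (SE) above TIA1 (adjusted p = 0.00513) and 6.60 ± 0.25 above HuR (adjusted p = 0.00378). PAPPA, a protease that cleaves IGF-binding proteins, read -6.37, -6.59, -2.14 and -1.999, below background on both GFP arrays and at least 9.48-fold higher on the TIAR arrays. KCNK2, a leak potassium channel, was at least 4.93-fold higher (-6.80, -6.78, -3.00, -3.02) and was about as low in the TIA1 and HuR lines, at -7.41 to -6.00.

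Of the cadherin superfamily, CDH18, PCDH8 and PCDH20 were among the 15 RefSeq genes ranked first upward. CDH18 read -6.89, -7.06, -3.35 and -3.46, at least 3.76-fold higher. PCDH8, a protocadherin, read -5.31, -4.69, -1.42 and -1.21, at least 15.9-fold above GFP 1 and 10.4-fold above GFP 2, and PCDH20 read -3.90, -4.12, -0.41 and -0.68 (10.2-fold and 11.9-fold). Over the list of 26 neuronal adhesion genes measured, these 2 protocadherins, ODZ1 and LSAMP were higher (4 of 26, against 2.82% of all genes) and none was lower. LSAMP (-3.48, -6.73, -0.41, -0.44) was measured on 1 of the GFP arrays. The list has 40 genes on the array. A member below background on GFP 2, such as PCDH8, was counted only when above it on both TIAR arrays.

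The others among these 15 had varied roles. SEPP1, now SELENOP, a plasma selenium carrier, read -1.44, -0.76, 2.59 and 2.54, and CGA, the common subunit of glycoprotein hormones, read -1.61, -1.60, 1.83 and 1.98. LUM, a small leucine-rich proteoglycan of collagen matrix, read -5.22, -5.49, -0.75 and -1.16 and was measured on 1 GFP array. All 3 were higher than GFP in the TIA1 and HuR lines too, in which CGA read 0.22 to 1.43. SSPO (at least 4.44-fold), RANBP3L (at least 4.49-fold) and the orphan receptor GPR158 (at least 3.48-fold) were below background on both GFP arrays, and the noncoding RNA C5orf27 read -2.92, -2.93, 0.45 and 0.40.

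**Figure D1:**
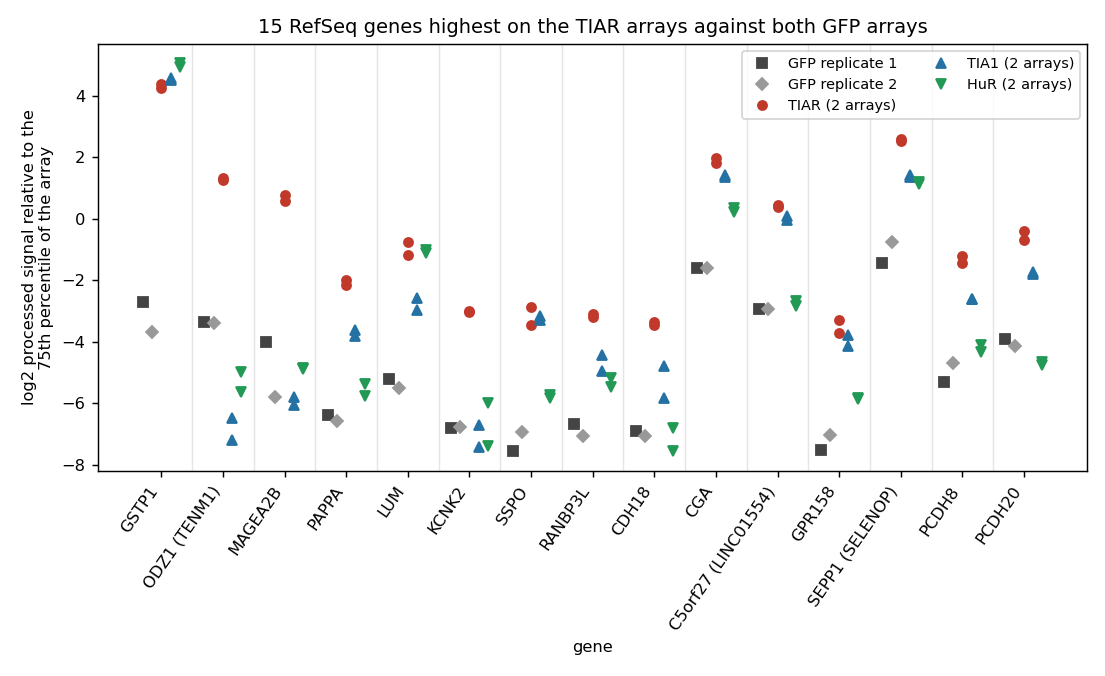
Log2 processed signal relative to the 75th percentile of the array (vertical axis) for the 15 RefSeq genes with the largest smallest-of-4 difference upward, with 1 point per array. The red points of the TIAR arrays lie close together above both GFP arrays for each gene, whereas the TIA1 and HuR arrays lie high for GSTP1 and low for ODZ1 and KCNK2.

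Downward, COL2A1, SPARC and CD109 ranked first among RefSeq genes by the smallest of the 4 differences on each gene's brightest tested probe. Other probes of genes described further on, of HIST1H4K, HIST1H2AM and ERVMER34-1, differed by more. COL2A1, the collagen of cartilage, read 1.68, 2.51, -2.16 and -2.31, which is 15.1-fold below GFP 1 and 26.8-fold below GFP 2. SPARC, a matricellular glycoprotein that binds collagen, read -0.99, -0.79, -5.00 and -4.81 (15.1-fold and 17.4-fold). CD109, a membrane-anchored coreceptor that holds back TGF-beta signaling, read -0.29, 0.64, -4.02 and -4.24 (14.3-fold and 27.3-fold). In each case the TIAR arrays lay close together and both GFP arrays far above them. The 3 genes differed in the other lines: CD109 was at 0.84 to 1.20 on the TIA1 and HuR arrays, whereas SPARC was at -5.31 and -5.11 and COL2A1 at -5.12 and -5.05 in the HuR line.

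The remaining 12 of the 15 RefSeq genes with the largest differences downward were below background on both TIAR arrays. Their bounds ran from at least 1.67-fold for the antisense RNA LOC100507589 to at least 7.52-fold for the pseudogene ANKRD30BP2 (-3.31, -1.27, -6.40, -7.07). NANOG, a transcription factor of pluripotent cells, was among them at -2.79, -3.79, -6.21 and -7.06 (at least 3.76-fold), as were the chemokine receptor CCR3 (at least 2.58-fold), the cytokine IL26 (at least 4.89-fold) and the Kelch protein KLHL34 (at least 6.34-fold). Most of these genes were also low on the TIA1 and HuR arrays. NANOG, C8orf31 and NXPH2 were exceptions in the HuR line, reading -3.65 to -3.44, -3.65 to -3.49 and -5.14 to -4.92.

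**Figure D2:**
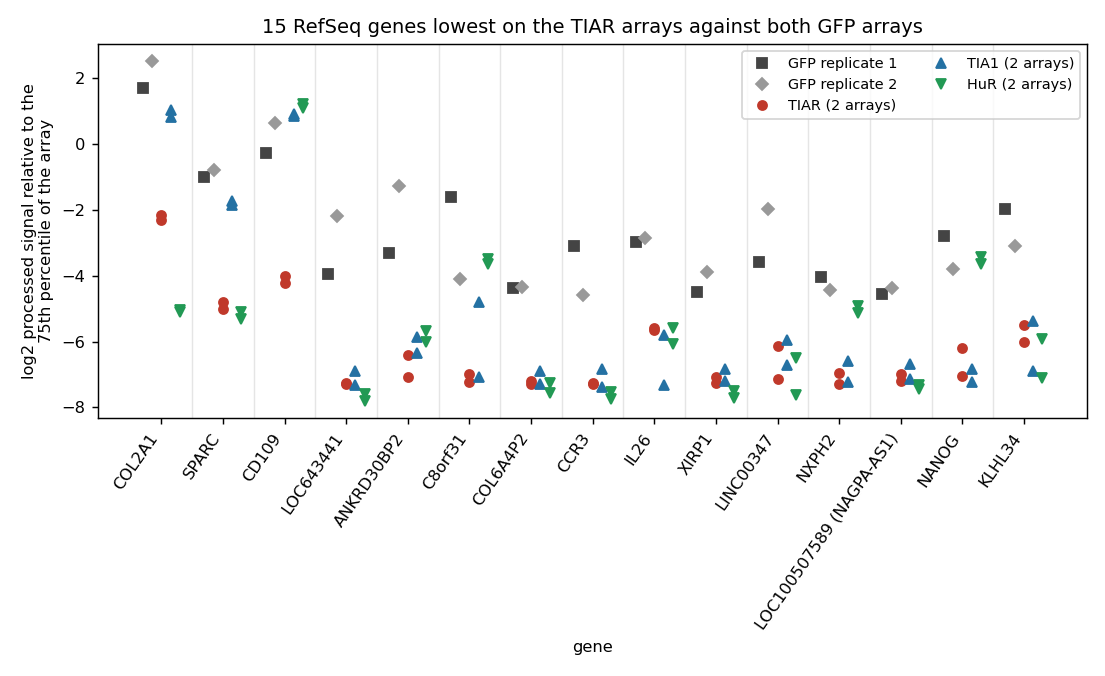
Log2 processed signal relative to the 75th percentile of the array (vertical axis) for the 15 RefSeq genes with the largest smallest-of-4 difference downward, with 1 point per array. COL2A1, SPARC and CD109 are measured on every TIAR and GFP array. The other 12 sit at or below -5.50 on the TIAR arrays, where signal is not above background.

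The TIA1 and HuR arrays were then set beside these genes. Of the 597 higher genes, 45 (7.54%) had both TIAR arrays at least 2-fold above all 6 other arrays, 176 (29.5%) had the TIAR and TIA1 arrays above the GFP and HuR arrays, and 70 (11.7%) had all 3 RNA-binding protein lines above GFP. For the 302 lower genes these counts were 13 (4.3%), 38 (12.6%) and 98 (32.5%). The comparisons share the TIAR arrays. Limma between the TIAR and TIA1 lines, which uses no GFP array, called 60 of the 596 higher genes tested up (1.44% of all genes tested in both) and 27 of the 157 lower genes tested down (0.895% of all). Between the TIAR and HuR lines it called 322 of 597 up (7.28% of all) and 93 of 194 down (2.78% of all).

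Among the 36 RefSeq genes that were higher in TIAR-expressing cells than on all 6 other arrays were TIAL1, ODZ1, PAPPA, KCNK2 and SEPP1, and the others named next were picked after their values were seen. TSPO, the outer mitochondrial membrane translocator protein, was the brightest after TIAL1 at 2.54, 3.14, 5.13 and 5.33, with 3.48 to 3.63 in the TIA1 and HuR lines. ECHDC2, a mitochondrial hydratase family member, read -0.55, -0.77, 1.33 and 1.30, and the protease inhibitor SPINT1 read -1.38, -1.23, 0.52 and 0.43. The linker histone H1F0 read 1.12, 1.22, 2.46 and 2.32, and the TIA1 and HuR arrays lay between -0.71 and 1.09. Receptors in this set were CHRM2, PTGER4 and PTGFR, for which PTGFR read -3.86, -5.16, -2.02 and -1.88. CALB1, a calcium-binding protein of the distal kidney tubule and of neurons, read -5.13, -6.78, -1.76 and -2.02 and was at least 8.71-fold higher.

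Genes high in both TIA protein lines included CCL2, a monocyte chemokine with an AU-rich 3′ end, at -4.40, -4.45, -1.51 and -1.52, against -1.60 and -1.43 on the TIA1 arrays and -6.18 and -5.92 on the HuR arrays. MAGEH1 (-1.54, -1.21, 1.42, 1.52), DHRS2 (1.24, 0.86, 3.77, 3.77) and the interleukin IL11 (-5.14, -5.80, -2.70, -2.55) had the same pattern. In the downward direction it held for E2F5, a transcriptional repressor of the cell cycle, at 0.39, 0.80, -1.25 and -1.32, with -1.18 and -1.31 on the TIA1 arrays and 1.26 and 1.36 on the HuR arrays. PLA2G7, which hydrolyzes platelet-activating factor, was likewise low in both TIA lines (-2.09, -2.14, -3.92, -4.51).

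Several MAGEA and CSAG genes were higher in TIAR-expressing cells than in all other lines. MAGE genes encode antigens normally made in the testis and in tumors. MAGEA2B read -4.02, -5.80, 0.79 and 0.60, 26.1-fold above GFP 1 and 90.0-fold above GFP 2, against -6.05 to -4.84 in the TIA1 and HuR lines. Limma gave MAGEA2B a difference of 6.61 ± 0.15 (SE) from TIA1 (adjusted p = 0.0035) and 5.55 ± 0.11 from HuR (adjusted p = 0.0024). MAGEA6 read -3.34, -4.83, -0.79 and -0.82 and its second probe -5.64, -6.60, -1.32 and -1.20. MAGEA12 read -2.65, -6.01, -0.15 and -0.42 and CSAG1 read -0.62, -2.76, 0.86 and 1.22. The TIAR arrays were thus alike, while GFP 1 was above GFP 2 for each of these genes, so the fold against GFP 1 is the smaller.

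In the block of chromosome X around these genes (probes at chrX:151870169-151996240 of hg19), 5 of 9 tested probes were higher and none was lower. The second MAGEA2B probe read -3.97, -6.77, -3.03 and -3.33, less than 2-fold above GFP 1. CSAG3 (-2.98, -3.44, -3.48, -3.30) and the centrin CETN2 (1.79, 2.32, 1.56, 1.63), which share the block, were not higher. CSAG2, whose probe has no position in the files, read -4.49, -7.03, -1.43 and -1.17. MAGEA2 and MAGEA2B, MAGEA3 and MAGEA6, and CSAG2 and CSAG3 are nearly identical copies that a probe may not tell apart. Over the list of 20 MAGE and cancer-testis genes measured, 7 were higher (these 5, CTAG2 and MAGEH1), against 2.82% of all genes. The list had medians of 0.46 against GFP 1 and 0.96 against GFP 2. A gene was measured only when well above background on both TIAR arrays or on GFP 2, as were 20 of 38 on the array. A member below background on GFP 2 was thus counted only when above it on both TIAR arrays.

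Chromosome 13 held a larger share of lower genes than any other chromosome. Of 417 genes tested there, 35 were lower (8.39%) against 1.43% of all genes, and 191 (45.8%) had both TIAR arrays below both GFP arrays, against 18.3% of all genes. The median TIAR-minus-GFP difference was -0.26 against GFP 1 and -0.32 against GFP 2, where all genes had medians of 0.23 and 0.02. The median was negative against the TIA1 mean (-0.28) and the HuR mean (-0.13) too. Among the other chromosomes, the share of lower genes ran no higher than 2.29%.

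Most of the shift lay beyond about 40 Mb of hg19, a boundary set after the values were seen. Of 279 genes beyond it, 34 were lower (12.2%) and 157 (56.3%) lay below both GFP arrays, with median differences of -0.45 against GFP 1, -0.56 against GFP 2, -0.49 against TIA1 and -0.23 against HuR. Of the 138 genes before it, 1 was lower, and the medians were 0.14, -0.06, 0.02 and 0.01. Kept to genes well above background on all 8 arrays, 226 genes beyond the boundary had medians of -0.35, -0.57, -0.55 and -0.28, while 18176 such genes of the other chromosomes had 0.30, 0.01, 0.00 and 0.02. Taken in stretches of 10 Mb, the shift was uneven. Between 70 and 80 Mb the medians of 30 genes were -0.76, -1.04, -1.12 and -0.77, the most negative of any stretch against GFP 2, TIA1 and HuR, and 6 genes were lower (20%). Between 90 and 100 Mb they were -0.85, -0.67, -0.59 and -0.60 over 33 genes, of which 9 were lower (27.3%). No such shift was seen between 60 and 70 Mb (14 genes, none lower, medians -0.21, 0.02, -0.06 and 0.12) or between 80 and 90 Mb (5 genes, 2 higher and 2 lower, medians 0.35, -0.08, -0.01 and -0.01). Before the boundary, the 11 genes between 10 and 20 Mb had a median of -0.88 against GFP 1 but -0.15, -0.01 and -0.16 against the others. Limma called 41 of 263 genes beyond the boundary lower than in the TIA1 line (0.895% of all genes tested in both) and 4 higher (1.44% of all). Against the HuR line it called 39 of 267 lower (2.78% of all) and 15 higher (7.28% of all). Against GFP 2, the same genes had medians of -0.06 in the TIA1 line and -0.34 in the HuR line.

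**Figure D3:**
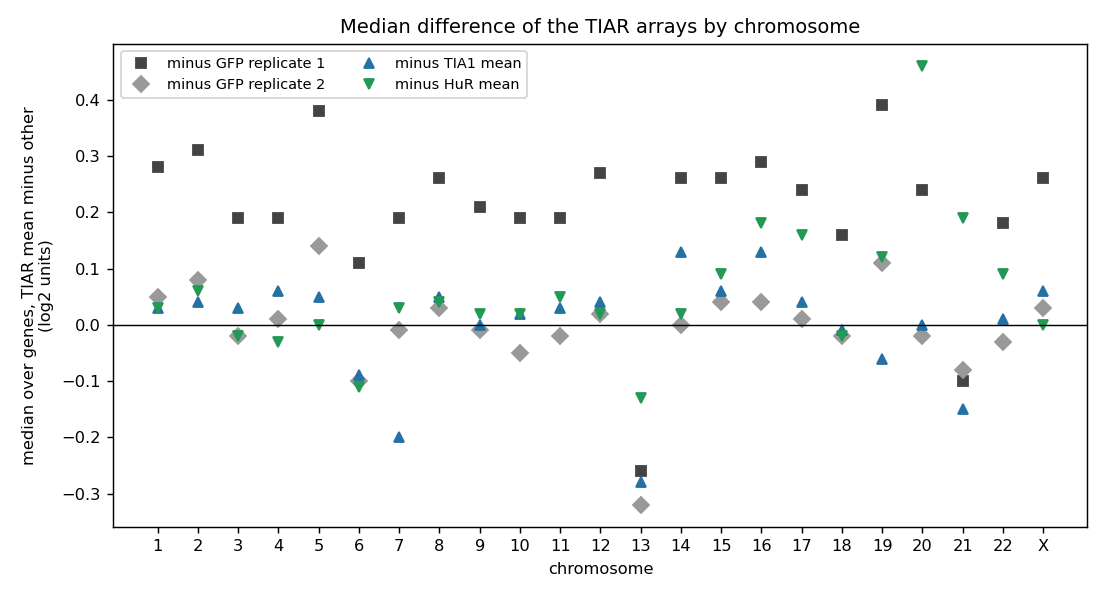
Median over the tested genes of each chromosome (horizontal axis) of the TIAR mean minus each GFP array, the TIA1 mean and the HuR mean (vertical axis, log2 units). All 4 medians are negative on chromosome 13, from -0.32 to -0.13, and GFP replicate 1 gives higher medians than GFP replicate 2 on most chromosomes.

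Of the 13 genes that were lower on the TIAR arrays than on all 6 others, 6 lie on chromosome 13. CUL4A, the scaffold of a ubiquitin ligase, read 3.41, 3.77, 1.94 and 1.92, against 3.14 to 3.34 in the TIA1 and HuR lines. MYCBP2, another ubiquitin ligase, read 3.11, 3.67, 2.06 and 2.07, and SPRY2, an inhibitor of receptor tyrosine kinase signaling, read 1.99, 2.02, 0.88 and 0.92. BIVM read 1.65, 2.16, -0.21 and -0.26 and SLAIN1, which promotes microtubule growth, read 1.67, 2.12, 0.19 and 0.04. These are among the brighter of the lower genes, and each was measured on every array. The last of the 6 was the noncoding transcript XLOC_010622.

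Other chromosome 13 genes were lower against GFP with the TIA1 or HuR arrays in between. DIS3, a catalytic subunit of the RNA exosome, read -1.07, -2.14, -3.44 and -3.59, and NDFIP2, an adaptor of NEDD4 ubiquitin ligases, read 1.69, 2.21, 0.55 and 0.39. SOX21, a neural transcription factor, was equally low in the TIA1 line (-2.05, -1.47, -4.13, -3.67, and -4.12 and -3.65 on the TIA1 arrays). A few genes of the same stretch went the other way: PCDH8, PCDH20, the neuronal adhesion protein SLITRK5 (at least 4.98-fold higher) and the transcription factor ZIC2 (-3.48, -2.83, -1.34, -1.68).

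**Figure D4:**
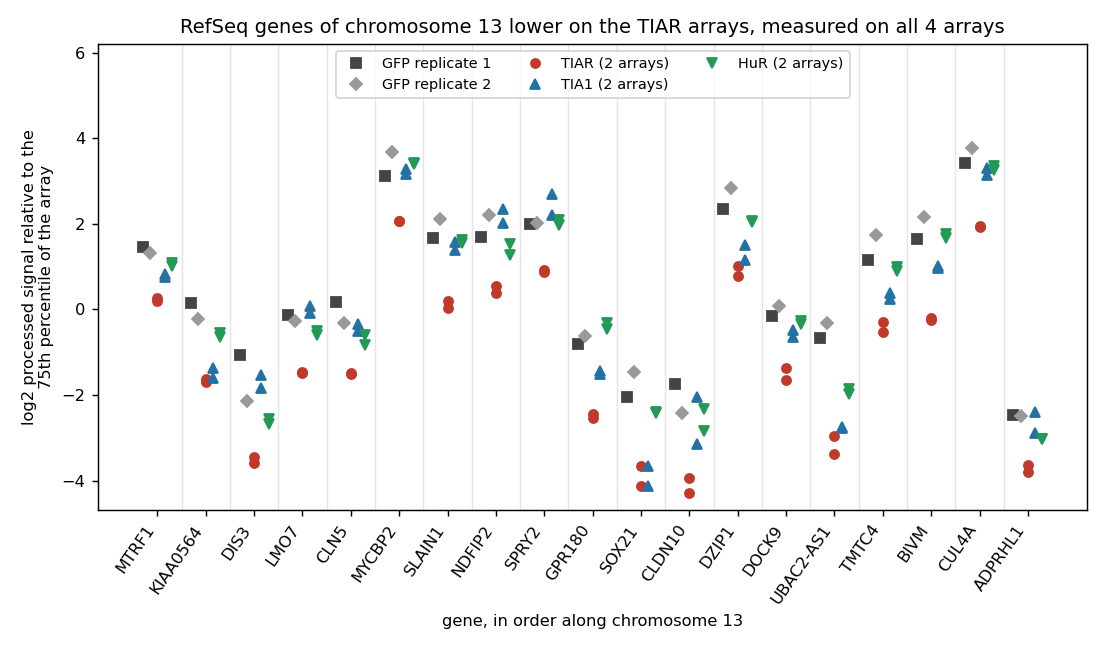
Log2 processed signal relative to the 75th percentile of the array (vertical axis) for the 19 RefSeq genes of chromosome 13 that were at least 2-fold lower on each TIAR array than on each GFP array and measured on all 4, in order along the chromosome. The TIAR arrays lie below both GFP arrays throughout, with the TIA1 and HuR arrays mostly in between or beside the GFP arrays.

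Genes were higher in 5.24% of cases on chromosome 5 (49 of 936) and 4.67% on chromosome X (34 of 728), against 2.82% overall. On chromosome 5 the medians were 0.38 and 0.14 against GFP 1 and GFP 2, each above the median of all genes. Against the TIA1 and HuR means they were 0.05 and 0. The TIA1 and HuR lines themselves had chromosome 5 medians of 0.13 and 0.22 against GFP 2, so the shift was not particular to the TIAR line.

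Single probes within a gene often differed. Of 5322 genes with at least 2 tested probes, all probes were higher in 21 and only some in 222, and all were lower in 11 and only some in 135. In 4 genes (GCFC1-AS1, MBP, WWOX and XLOC_l2_013873) a probe was higher and another lower. For WWOX, an oxidoreductase of a fragile site, one probe read 0.51, 0.66, 2.10 and 2.15 and another -0.27, -0.36, -1.50 and -1.54. These were chosen after their values were seen.

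Histone genes of the chromosome 6 cluster gave a local example. Among 20 tested probes at chr6:27775286-27861647 of hg19, 3 were lower. HIST1H4J, a histone H4 gene, read 0.65, 1.26, -2.07 and -1.76. One HIST1H4K probe read -0.32, 0.44, -6.08 and -5.47, at least 38.3-fold lower, whereas the other probe read 2.32, 2.70, 1.31 and 2.06. One HIST1H2AM probe read 0.04, -0.24, -4.50 and -4.74, and the other, placed beside it, read 3.28, 3.59, 3.15 and 3.66. Histone genes of 1 type are alike in sequence, and whether the probes share targets was not tested. Likewise, 3 probes of ERVMER34-1, an endogenous retroviral envelope gene, were lower (-0.88, -0.41, -6.44 and -7.13 on one of them), and its brightest probe was not (-0.69, -0.92, -1.40, -1.01).

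Gene lists tied to the known roles of TIAR were then counted. Each list was set beside all genes tested, of which 2.82% were higher and 1.43% lower with medians of 0.23 against GFP 1 and 0.02 against GFP 2. No limma call was made in any list. Both TIAR arrays lay above both GFP arrays, by any amount, for 31% of all genes, and below both for 18.3%. The lists were not matched to all genes by signal, with which the difference from GFP 1 varied. Each gene is counted by its brightest tested probe. In every list, a member below background on GFP 2 was counted only when above it on both TIAR arrays. Of 15 AU-rich element binding proteins, ZFP36 was higher (1.75, 1.96, 3.29, 3.28), a protein that speeds the decay of cytokine mRNAs. None of 21 stress granule proteins was higher or lower. Of 34 splicing factors, the kinases CLK1 (0.90, 0.83, 2.29, 2.10) and CLK4 (-1.10, -0.26, 0.94, 0.76), which phosphorylate SR proteins, were higher and none was lower. None of 78 cytosolic ribosomal proteins passed the rule by its brightest probe, with medians of 0.69 and 0.09, the first of which is larger than that of all genes and the second close to it. Another probe of RPL22 (2.69, 2.62, 3.92, 3.79) and another of RPS2 (7.75, 7.91, 8.94, 9.13) were higher.

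Immediate early and cytokine genes, whose mRNAs carry AU-rich elements, had medians of 0.78 and 0.44, with 4 of 31 higher and none lower. Besides CCL2 and ZFP36 these were EGR1 (-0.17, 0.37, 2.00, 1.93) and FOSB (-2.32, -1.64, -0.49, -0.39), both early transcription factors. Of 30 interferon-stimulated genes 4 were higher, IFI27 (-2.74, -2.59, -0.69, -0.62), ISG20 (0.56, 0.71, 2.09, 1.90), IFI44 and IFI44L, and the last 2 were below background on both GFP arrays. A second probe of DDX58, an RNA sensor, was lower (-1.91, -2.06, -3.32, -3.40).

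Stress genes of the ATF4 pathway, which acts when the initiation factor eIF2 is phosphorylated, had medians of 0.84 and 0.40. The higher genes were 2 of 28, DDIT3 (-0.07, 0.77, 1.84, 2.12), a proapoptotic transcription factor, and NUPR1 (1.83, 2.59, 3.95, 3.92), a chromatin protein of the stress response, and 19 of 28 had both TIAR arrays above both GFP arrays, against 31% of all genes. TRIB3, ATF3 and CHAC1, picked after their values were seen, were in that group without passing the rule, although a second probe of CHAC1 passed it (-2.38, -2.004, -0.88, -0.79). NUPR1 was highest in TIAR-expressing cells (2.30 to 2.52 in the TIA1 and HuR lines), with limma differences of 1.56 ± 0.11 (SE, adjusted p = 0.0194) from TIA1 and 1.53 ± 0.12 (adjusted p = 0.00587) from HuR. DDIT3 was not called against TIA1 (0.28 ± 0.15, adjusted p = 0.349).

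Of 40 p53 targets, DRAM1 (-2.40, -2.09, -1.09, -1.08), a lysosomal protein of autophagy, and the stress cytokine GDF15 (-0.22, -0.15, 0.93, 0.91) were higher and none was lower, with medians of 0.73 and 0.24. Both TIAR arrays lay above both GFP arrays for 27 of the 40 and below both for 1, against 31% and 18.3% of all genes. A second probe of TP53INP1, an autophagy protein, was higher (-4.58, -4.60, -3.11, -3.01). Among 23 death receptors and caspases TNFRSF10D, a decoy receptor for TRAIL, was higher (1.98, 2.27, 3.91, 3.92). None of 18 BCL2 family genes was past 2-fold against both arrays. G1 cyclins, kinases, inhibitors and E2F factors had E2F2 higher (2.80, 3.36, 4.62, 4.76) and E2F5 lower, of 28, and a second probe of RBL1, a pocket protein that binds E2F factors, was higher (-4.09, -4.27, -1.53, -2.19).

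S phase genes (43) had medians of 0.82 and 0.21 and G2/M genes (54) medians of 0.71 and 0.22. CENPA (0.15, 0.26, 2.06, 1.70), the centromeric histone, and SMC4 (2.51, 2.81, 4.17, 4.19), a condensin subunit, were the 2 that were higher, both in the G2/M list, in which 39 of 54 genes had both TIAR arrays above both GFP arrays, against 31% of all genes. In the S phase list 27 of 43 did, and 2 lay below both GFP arrays. The medians against GFP 1 exceed those against GFP 2, so how far these lists differ from all genes depends on which GFP array is the control.

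Matrix genes differed in both directions. Of 33 measured, COL12A1 (-0.89, -1.15, 0.95, 1.03), COL5A2, SPOCK1, TNXB and LUM were higher, and COL2A1, SPARC, COL9A2 (-0.56, -0.38, -2.04, -1.70) and the laminin chain LAMA1 (0.68, 0.94, -0.73, -0.66) were lower. The imprinted genes H19 (-0.28, -3.30, -4.55, -4.62) and MEST (-0.90, -2.70, -3.75, -3.90) were lower, of 24. On these brightest probes of both genes, however, the GFP arrays lay further apart than GFP 2 and the TIAR arrays. Another H19 probe was lower too, and on it the GFP arrays lay closer to each other than to either TIAR array. NRF2 targets (2 of 23 higher, AKR1B10 and AKR1C3), heat shock genes (1 of 21, DNAJB4) and mitochondrial dynamics genes (0 of 17) completed the lists.

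**Figure D5:**
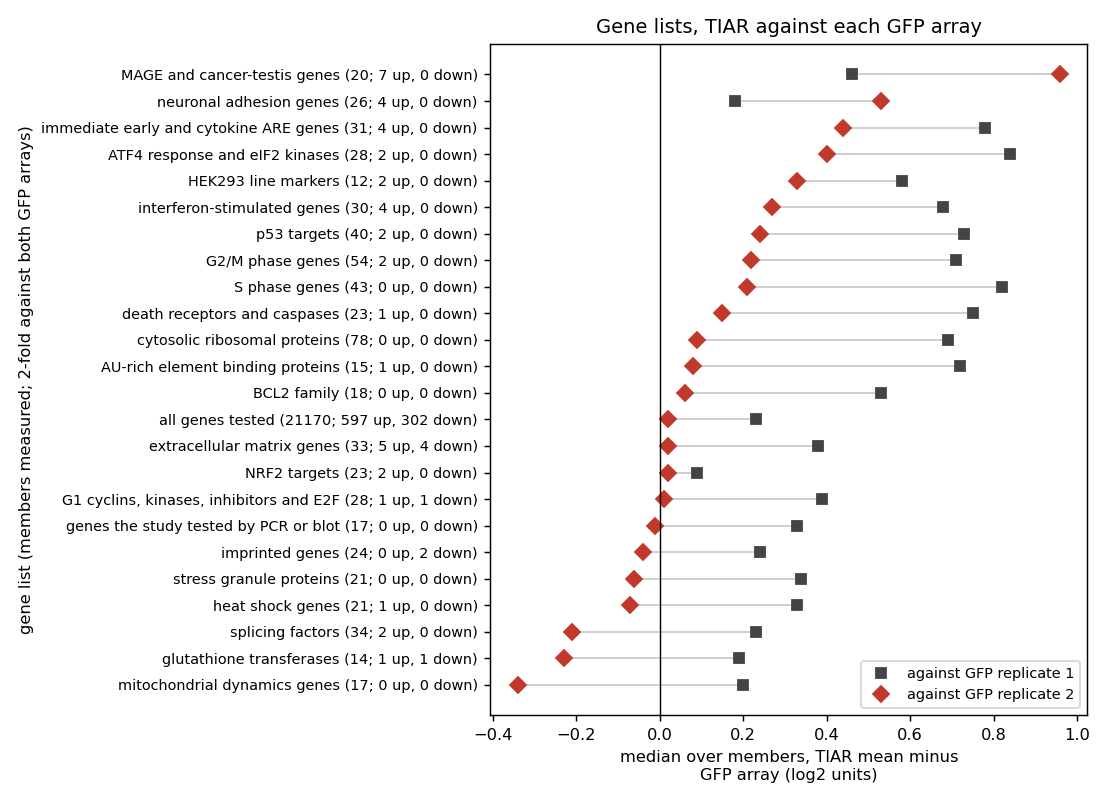
Median over each list's measured members of the TIAR mean minus GFP replicate 1 (squares) and minus GFP replicate 2 (diamonds), in log2 units, for the lists with at least 10 measured members and for all genes tested. They lie between -0.34 and 0.96 against GFP replicate 2, and most lie further right against GFP replicate 1.

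The 17 genes that the study tested by PCR or blot were all measured, and by its brightest probe none was 2-fold higher or lower against both GFP arrays. Both TIAR arrays lay above both GFP arrays for 7 of the 17 and below both for 4, against 31% and 18.3% of all genes. Of the 10 other probes of these genes that were tested, 1 passed the rule. It was a probe of NUP98, a nuclear pore protein, which read 1.51, 2.23, 3.73 and 3.80, 4.77-fold above GFP 1 and 2.89-fold above GFP 2. The TIA1 arrays read 3.66 and 3.71 on it and the HuR arrays 1.51 and 1.61, and limma put TIAR 2.20 ± 0.10 (SE) above HuR (adjusted p = 0.00396) and 0.08 ± 0.11 above TIA1 (adjusted p = 0.711). The brightest NUP98 probe went the other way, at 2.80, 3.33, 2.27 and 2.58, so the probes of this gene differed in direction. GADD45B, a growth arrest protein, read 2.57, 3.1, 3.98 and 3.94, and BBC3, a BH3-only protein that triggers apoptosis, read 2.43, 2.73, 3.68 and 3.75. MYC read 3.1, 3.62, 2.33 and 2.46. The lines did not overlap for these 3 genes, and the limma difference for MYC was -0.97 ± 0.32 (SE, adjusted p = 0.32). The TIAR arrays were also above the GFP arrays, by less, for CDKN1A, the p21 inhibitor of cyclin-dependent kinases (-2.52, -2.35, -2.13 and -2.14). The lines overlapped for GAPDH and for the brightest BAX probe. GAPDH read 7.66, 8.18, 8.16 and 8.18, and that BAX probe read 3.18, 3.75, 3.71 and 4.11. On the other BAX probe both TIAR arrays lay below both GFP arrays, by less than 2-fold, so the BAX probes differed as well.

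Marker genes of HEK293 cells were in place. All 12 on the list were measured, among them VIM at 6.79, 6.64, 7.38 and 7.38 and KRT18 at 4.59, 5.05, 5.78 and 5.96. EYA1 (-0.86, -1.11, 0.28, 0.31) and NEFH (-3.01, -4.25, -1.15, -1.06) were higher on the TIAR arrays. Some markers of other cells were measured as well. They were 8 of 12 of differentiated kidney, with CALB1 higher, and 6 of 9 of epithelium, with none higher or lower. Of fibroblast markers 4 of 10 were measured, with LUM higher, while COL1A2 and COL3A1 did not pass the filter on dim probes. Of the blood markers on the array 4 of 10 were measured and CD14 and CD68 were higher (CD68 at -1.24, -0.70, 0.86 and 0.86), while CD3E, MS4A1 and HBB did not pass that filter. Their part in the other results was not tested. PTPRC read 1.51 on GFP 1 and -3.56 to -3.78 on the other 3 arrays.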

How the data were processed

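Total RNA was labeled with Cy3 and hybridized to 1-colour Agilent human 8x60K arrays, 8 on 1 slide. The label protocol names a rat array, but the files and the paper's methods give the human design. One TIA1 label reads GFP-TIA2 in its source name and TIA1 elsewhere. The authors deposited Feature Extraction 10.7.3.1 output, in which an intensity per spot, called the processed signal, is corrected for background and for trends across the array, with probe positions on hg19. They also deposited a series table of log2 values after quantile normalization, used here as an alternative, in which the TIAR arrays have a lower median (7.08) than the others (7.16 to 7.24). The submitters' processing notes name limma. No column of the authors' own comparisons was found in the files used.

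Processed signals were put on the log2 scale, the array's 75th percentile was subtracted, outlying spots were dropped and replicate spots averaged per probe. Probes well above background on both TIAR arrays or on GFP 2 were tested (28591 probes, 21170 genes of 36337 gene names), and 67 probes that passed had no value on some array and were dropped. A gene's value is that of its tested probe with the highest mean over the 8 arrays. Limma 3.58.1 in R 4.3.3, with data.table version 1.17.8, tested 2 arrays against 2 with Benjamini-Hochberg adjustment over all probes, and an exact permutation test of 2 against 2 cannot go below p = 0.333. The steps were checked on simulated data. RefSeq-style names were found for 30878 probes and looked up in a RefSeq table, where 28174 were present. Probes were not assigned to exons or untranslated regions.

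The comparison, the lists and the rule for named genes were chosen with earlier results of these data known. Named by rule are TIAL1, TIA1 and ELAVL1, the 15 RefSeq genes in each direction with the largest smallest-of-4 difference, the list members that passed the 2-fold rule and the genes tested by PCR or blot. Genes named by line pattern, position or probe disagreement were picked after their values were seen. The S and G2/M lists are those of Seurat 5.3.0. The number of arrays limits the precision, and no spot was saturated.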

Additional observations from a re-analysis of the deposited data

Results flagged for a closer look

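Some of the genes named above differed between lines expressing different RNA-binding proteins, by limma on the 2 arrays of each line and without the GFP arrays (log2 differences, adjusted p under 0.05 for each). The TIAR line exceeded the TIA1 line by 8.12 for ODZ1, 6.61 for MAGEA2B, 4.05 for KCNK2, 1.81 for LUM, 1.63 for PAPPA, 1.53 for RANBP3L, 1.29 for PCDH8, 1.21 for PCDH20 and 1.17 for SEPP1. The difference from TIA1 was -5.00 for CD109, -3.16 for COL2A1 and -3.11 for SPARC.

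The TIAR line exceeded the HuR line by 6.60 for ODZ1, 5.55 for MAGEA2B, 4.16 for PCDH20, 3.77 for CDH18, 3.68 for KCNK2, 3.50 for PAPPA, 3.17 for C5orf27, 2.90 for PCDH8, 2.85 for COL2A1, 2.62 for SSPO, 2.34 for GPR158, 2.16 for RANBP3L, 1.62 for CGA and 1.39 for SEPP1. It was lower by -5.28 for CD109, -3.55 for C8orf31 and -3.09 for NANOG. COL2A1 thus lay below GFP and TIA1 in the TIAR line and above HuR. No group held more than 2 arrays, so no array could be tested as an outlier within its line.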

How the results depend on the processing

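Of 93 named genes, none that passed the 2-fold rule changed direction under any alternative. Some that did not pass it changed sign. The mean difference of CDKN1A went from 0.3 to -0.07 with normexp background correction, but to 1.21 with quantile normalization. That of GAPDH went from 0.25 to -0.15 with quantile normalization. With normexp, 51 of the 93 differences moved by at least the larger of the GFP and TIAR standard deviations. Against the 597 higher and 302 lower genes, normexp background correction gave 383 and 72, normexp with quantile normalization 391 and 109, the authors' values 421 and 116, and probes above background on all 4 arrays 410 and 142. Leaving out an array gave 789 to 1808 higher and 460 to 2553 lower genes, as fewer differences must pass: 1476 and 588 without GFP 1, 1808 and 2553 without GFP 2, 789 and 460 without TIAR 1, and 809 and 550 without TIAR 2. Limma's 0 calls became 15 up and 2 down with normexp, 25 and 5 with probes above background on all 4 arrays, 904 and 373 with all 8 arrays in one fit, 27 and 4 with array weights, and 289 and 106 for the methods' paired t-test at an unadjusted p under 0.05 (0 and 0 after Benjamini-Hochberg). It stayed at 0 with quantile normalization, with the authors' values and without the filter. Leaving out an array gave 17 to 2137 limma calls up and 33 to 2612 down (1077 and 341 without GFP 1, 2137 and 2612 without GFP 2), where the lone array is assumed to vary like the other line. Of the 904 and 373 calls of the 8-array fit, 561 and 235 were among the higher and lower genes.

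The replicate block gave 251 limma calls up and 446 down. The replicate numbers did not pair the arrays by the labels, and the correlation of the deviations was -0.033. Of the higher and lower genes, 87 were called between TIAR and TIA1, and 46 in the 8-array fit, 0 with the replicate block and 8 to 11 with an array left out. Between TIAR and HuR, 415 became 181 to 415 with an array left out (195 without HuR 1, 181 without HuR 2) and 415 with the replicate block. The chromosome 13 medians beyond 40 Mb, added after seeing the data, were -0.27 and -0.58 against GFP 1 and GFP 2 with quantile normalization and -0.21 and -0.47 with the authors' values. The causes were not tested.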
